A study of Mus musculus with 18 samples.

Results

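The genes of the smooth muscle contractile apparatus were followed through whole-thickness ileum, a tissue in which the outer muscle wall is sequenced together with the mucosa. They were taken as 33 gene symbols, each of which matched 1 row among the 55487 genes of the count files, and all 33 passed the filter on low values (more than 3 CPM, counts scaled to equal library totals, in at least 4 libraries) that left 12645 protein-coding genes for testing. By role they comprised 9 genes of the thin filament, 8 of myosin and its regulation, 9 of the intermediate filaments and cytoskeletal scaffold, 6 of the membrane, channels and adhesion, and the transcriptional coactivator *Myocd*. The 18 libraries came from 18 mice, 1 library per mouse, in 3 genotypes of 6. IEC-*Ppara* mice carried the conditional transgene CAG-*Ppara*,-*EGFP*, inserted at the *Col1a1* locus, in the heterozygous or homozygous state together with *Villin-CreERT2*, and control littermates lacked *Villin-CreERT2*. *Villin* drives the recombinase in intestinal epithelium, so the muscle itself was not the tissue targeted. Mice of every genotype ate chow, received 3 daily injections of tamoxifen (100 mg/kg) and were collected 2 weeks after the last. The study used mice of 8 to 13 weeks of age. The controls were 3 females and 3 males, and each transgenic genotype held 2 females and 4 males. The comparisons below ask whether the muscle genes differed between these genotypes, and how they varied from piece to piece of gut.

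Smooth muscle of the gut wall lies in an inner circular and an outer longitudinal layer, with a thin muscularis mucosae beneath the epithelium and further muscle around blood vessels. Calcium that enters through voltage-gated channels activates myosin light chain kinase, which phosphorylates the regulatory light chain and lets myosin pull on actin, and myosin phosphatase reverses this step. Dense bodies, plaques at the membrane and a desmin network carry the force through the cell. Serum response factor and its coactivator myocardin switch on many of these genes through a short DNA element named the CArG box.

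The total count of a library lay between 38528522 and 50376371. *Ppara*, the gene the transgene carries, served as a check of the labels, with a lowest, median and highest level of 25.8, 39.4 and 47.4 CPM in control libraries, 107, 136 and 196 CPM in heterozygous libraries and 184, 211 and 279 CPM in homozygous libraries. Every transgenic library lay above every control library, while the heterozygous and homozygous ranges met. For the muscle genes, 3 libraries stood apart from the rest of their genotype. The libraries labelled control 6 and heterozygous 3 were low and the library labelled homozygous 3 was high, and the medians of spread, of correlation with *Myh11* and of fold change are also given without them. Because tissue was sequenced in bulk, fewer muscle cells in a piece and less RNA per muscle cell cannot be told apart.

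The CArG box was searched in promoter sequences, because the genes moved together across libraries and many of them are known targets of serum response factor. RefSeq promoters (build GRCm38.p6, from 250 bases before to 50 bases after a gene's start) were found for 29 of the 33 genes by symbol, with *Actg2*, *Tagln*, *Myh11* and *Myocd* not matched. The pattern reads the same on both strands. It was present for 2 of the 29 genes (6.9%) and for 488 of all 27025 symbols in the table (1.81%), and for 9 of 59 other smooth muscle genes described below (15.3%). The 2 windows are shown 5′ to 3′ on the strand of the gene, with the box in capitals. The *Myl9* window lies at chr2:156775293-156775322 on the plus strand and the *Ldb3* window at chr14:34588697-34588726 on the minus strand, and their boxes begin 161 and 35 bases before the RefSeq start, which for *Myl9* differs from the gene start in the count annotation given below.
Myl9: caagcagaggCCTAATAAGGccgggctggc
Ldb3: gggttacagtCCATTTATGGgcgcagcaag
A match of letters is a description and does not show that a factor binds there. *Myl9* followed *Myh11* from library to library and *Ldb3* did not, as described below.

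Per length of gene, the contractile proteins were among the most abundant messages of the ileum. *Myl9*, the regulatory light chain of myosin, had a median of 343 FPKM (counts scaled to library total and gene length) over the 18 libraries, *Acta2* (alpha smooth muscle actin) 317, *Actg2* (gamma smooth muscle actin, the actin typical of visceral muscle) 213 and *Myh11* (the smooth muscle myosin heavy chain) 203. The median over all genes tested was 5.93 FPKM, and 12 of the 33 members lay in the top 10% of them. At the other end stood the kinase *Prkg1* at 0.689 FPKM, the channel subunit *Kcnma1* at 0.895 and *Myocd* at 1.22. *Tagln* (SM22 alpha, at chr9:45929619-45936058 in GRCm38) was listed at only 2.48 FPKM. Of its 1988 exonic bases in the GENCODE M21 annotation 67.9% are shared with other genes, and reads that fit several genes were left out of the counts, so its level cannot be set beside those of other genes.

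**Figure D1:**
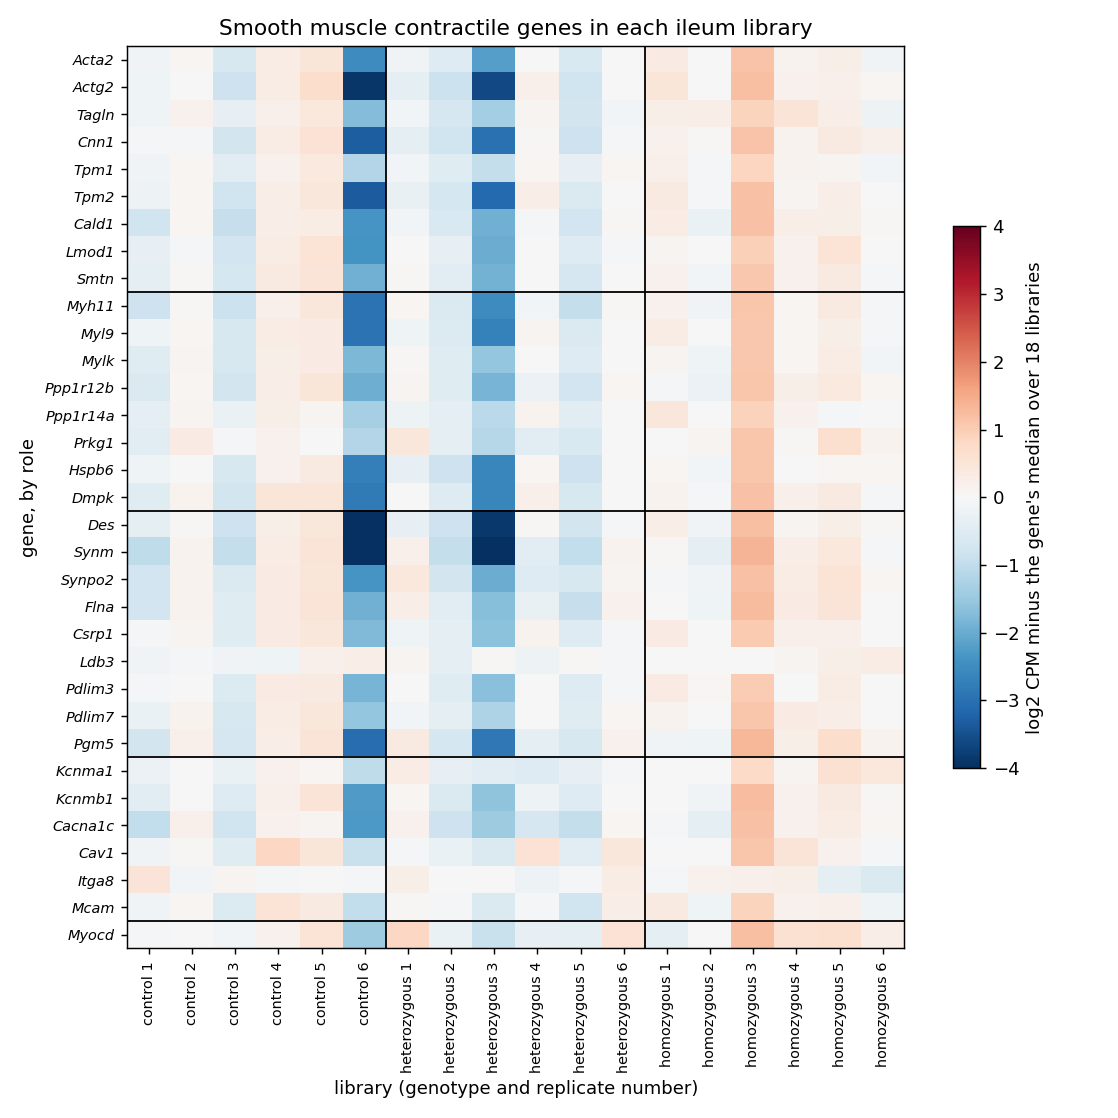
Level of each of the 33 genes (rows, grouped by role) in each of the 18 libraries (columns), as log2 CPM minus the median of that gene over the libraries; colours are limited to 4 in either direction. Control 6 and heterozygous 3 are blue for nearly all genes and homozygous 3 is red, while the rows of *Ldb3* and *Itga8* show neither.

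Summed over the 33 genes, muscle transcripts took 0.193% to 1.21% of all counts in control libraries (median 0.794%), 0.229% to 0.915% in heterozygous libraries (median 0.736%) and 0.824% to 1.91% in homozygous libraries (median 1.0%). The lowest control value belonged to control 6, the lowest heterozygous value to heterozygous 3 and the highest homozygous value to homozygous 3. The genotypes overlapped in every pairing. The spread between mice was wide for these genes in general. The median biological coefficient of variation, the between-mouse spread that edgeR estimates within genotypes, was 0.413 for the members against 0.141 for all genes tested, and 27 of the 33 lay in the top 10% of all genes. Without the 3 libraries that stood apart these figures were 0.215, 0.138 and 6 of 33, so most of the excess spread lay in those libraries.

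In the thin filament, the lowest, median and highest levels of *Acta2* (chr19:34241090-34255590, GRCm38) were 122, 684 and 966 CPM in controls, 150, 561 and 712 CPM in heterozygous and 626, 793 and 1527 CPM in homozygous mice. *Actg2* (chr6:83512905-83536265) had 22.3, 314 and 539 CPM in controls, 27.5, 221 and 378 CPM in heterozygous and 333, 380 and 758 CPM in homozygous mice. The low and the high ends were the same 3 libraries for both actins, and *Actg2* spanned 34.0-fold between the lowest and the highest library where *Acta2* spanned 12.5-fold. *Cnn1* (calponin, which binds actin and damps myosin's motor) ran from 19.96 through 189 to 294 CPM in controls, from 24.6 through 133 to 203 CPM in heterozygous and from 201 through 226 to 434 CPM in homozygous mice. *Cald1* (caldesmon, another actin-bound brake) had 52.1, 217 and 329 CPM in controls, 70.5, 212 and 275 CPM in heterozygous and 223, 316 and 601 CPM in homozygous mice. In each of these genes the homozygous median was the highest of the 3 and the ranges overlapped. *Smtn* (smoothelin, an actin-associated protein of contractile muscle) had 35.7, 122 and 193 CPM, 36.2, 117 and 139 CPM, and 125, 153 and 285 CPM in the same order of genotypes. For *Tagln*, read from the unshared part of the gene, the values were 1.49, 4.95 and 6.63 CPM, 1.90, 3.79 and 5.31 CPM, and 4.26, 5.92 and 9.07 CPM, from at least 59 counts per library.

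Among the genes of myosin and its regulation, *Myh11* (chr16:14194535-14291372) was at 198, 1225 and 2093 CPM in controls, 268, 1236 and 1626 CPM in heterozygous and 1408, 1686 and 3294 CPM in homozygous mice. Control and heterozygous medians were nearly equal, and the lowest homozygous library lay above the control and the heterozygous median. *Myl9* (chr2:156775420-156781658) had 51.4, 388 and 497 CPM in controls, 60.9, 311 and 434 CPM in heterozygous and 378, 442 and 849 CPM in homozygous mice. *Mylk*, myosin light chain kinase, had 212, 671 and 939 CPM, 256, 632 and 763 CPM, and 665, 790 and 1568 CPM in that order. *Dmpk*, a serine/threonine kinase of muscle, had 32.1, 207 and 319 CPM in controls, 37.1, 193 and 260 CPM in heterozygous and 217, 258 and 518 CPM in homozygous mice. In all 4 the control and heterozygous minima were control 6 and heterozygous 3 and the maximum was homozygous 3, but *Mylk* differed 7.40-fold between the lowest and highest library and *Myh11* 16.7-fold. Of the other members of this role, *Hspb6* (a small heat shock protein) spanned 14.3-fold, *Ppp1r12b* (a regulatory subunit of myosin phosphatase) 8.31-fold, *Prkg1* (the kinase that answers cyclic GMP) 4.83-fold and *Ppp1r14a* (CPI-17, an inhibitor of that phosphatase) 4.68-fold.

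The intermediate filament genes varied most. *Synm* (synemin, which partners desmin; chr7:67730160-67759742) had 6.07, 122 and 214 CPM in controls, 8.37, 94.9 and 174 CPM in heterozygous and 117, 168 and 384 CPM in homozygous mice, a span of 63.2-fold. *Des* (desmin, the main intermediate filament of muscle; chr1:75360329-75368579) had 36.2, 559 and 856 CPM, 43.4, 435 and 647 CPM, and 559, 700 and 1430 CPM in the same order, a span of 39.5-fold. Without control 6 and heterozygous 3, the lowest *Des* levels were 351 CPM in controls and 354 CPM in heterozygous mice, so the low end was made by those libraries. *Ldb3*, which encodes a Z-disc protein, behaved otherwise, with 86.3, 89.0 and 116 CPM in controls, 74.6, 96.5 and 104 CPM in heterozygous and 95.1, 100.0 and 117 CPM in homozygous mice. It differed only 1.58-fold between the lowest and highest of the 18 libraries, less than any other member. In between lay *Pgm5* (aciculin, of adhesion plaques) with 20.5-fold, *Synpo2* (an actin-bundling partner of filamin) with 11.8-fold, *Flna* (filamin A) with 9.07-fold, *Pdlim3* with 7.29-fold, *Csrp1* with 7.05-fold and *Pdlim7* with 6.19-fold, the last 3 being LIM domain proteins of the cytoskeleton.

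Channel and membrane genes were less abundant. *Kcnmb1*, the muscle beta subunit of the large-conductance calcium-activated potassium channel, had 2.27, 9.70 and 15.8 CPM in controls, 3.61, 8.61 and 11.5 CPM in heterozygous and 10.0, 11.8 and 26.1 CPM in homozygous mice. *Kcnma1* (chr14:23289431-24014491), the pore-forming alpha subunit of the same channel, had 7.48, 14.1 and 17.1 CPM, 10.7, 12.1 and 18.7 CPM, and 15.2, 18.5 and 25.7 CPM. Its homozygous minimum lay above both other medians, and its span over all libraries was 3.44-fold against 11.5-fold for the beta subunit. *Cacna1c*, the pore of the L-type calcium channel, had 6.22, 25.1 and 34.7 CPM in controls, 11.2, 18.0 and 34.1 CPM in heterozygous and 23.5, 32.97 and 68.5 CPM in homozygous mice. *Cav1* (caveolin 1, the coat of caveolae) had 32.4, 57.5 and 106 CPM, 40.1, 53.0 and 87.8 CPM, and 56.9, 63.7 and 129 CPM. *Itga8*, the alpha 8 integrin subunit, had 10.8, 11.4 and 16.6 CPM, 10.0, 11.7 and 14.3 CPM, and 7.82, 12.2 and 13.7 CPM, with the lowest level of all in a homozygous library. *Mcam* (an adhesion molecule shared by muscle, pericytes and endothelium) spanned 3.67-fold. *Myocd* was at 2.92, 7.70 and 11.4 CPM in controls, 4.22, 6.43 and 13.9 CPM in heterozygous and 6.14, 10.6 and 18.0 CPM in homozygous mice, and its groups overlapped.

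Nearly all members rose and fell together from library to library. Log2 CPM of each of the other 32 members was set against *Myh11* over 18 libraries. The median Pearson's r was 0.971, and r was above 0.9 for 25 of the 32 genes. For all 12644 other genes tested the median r was -0.072, and 2.45% were above 0.9. The points share their library totals and the piece of gut sampled. With 100000 permutations and Benjamini-Hochberg adjustment over the 32 relations, 30 genes passed an adjusted p of 0.05 by Pearson's r and by Spearman's rho. *Dmpk* and *Synm* had the highest correlation (r = 0.990 for each, permutation p = 1e-05, adjusted p = 1.1e-05, rho = 0.891 and 0.948), followed by *Smtn* (r = 0.989, rho = 0.979, with the same p-values for r). That p is the smallest that the permutations can give.

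Control 6 and heterozygous 3 were the libraries farthest from the median of *Myh11*, and r was computed again over the 16 others. The median fell to 0.903, and 16 of the 32 genes remained above 0.9, against 1.22% of all genes. *Dmpk* then had r = 0.964, *Synm* 0.973 and *Smtn* 0.977. Among the mice of 1 genotype the median r was 0.982 (controls), 0.970 (heterozygous) and 0.952 (homozygous), so the common movement was present among mice of the same genotype. Without homozygous 3 as well, over 15 libraries, the median r was 0.851, with 11 of the 32 genes and 0.656% of all genes above 0.9, and within genotypes of 5 it was 0.926, 0.841 and 0.703 in the same order.

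The lowest correlations were those of *Ldb3* (r = -0.216, permutation p = 0.392, adjusted p = 0.405, rho = 0.075), *Itga8* (r = -0.129, permutation p = 0.603, adjusted p = 0.603, rho = -0.195) and *Kcnma1* (r = 0.788, permutation p = 4e-05, adjusted p = 4.3e-05, rho = 0.825). *Ldb3* and *Itga8* were thus the only members whose relation to *Myh11* did not pass, and r for *Ldb3* had another sign over the 16 libraries (0.271). *Kcnma1* followed *Myh11* closely in controls (r = 0.989), and its r was 0.456 in heterozygous and 0.705 in homozygous mice. *Cav1* had r = 0.814, *Myocd* 0.857, *Mcam* 0.868 and *Prkg1* 0.883, and the remaining members lay above 0.93.

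**Figure D2:**
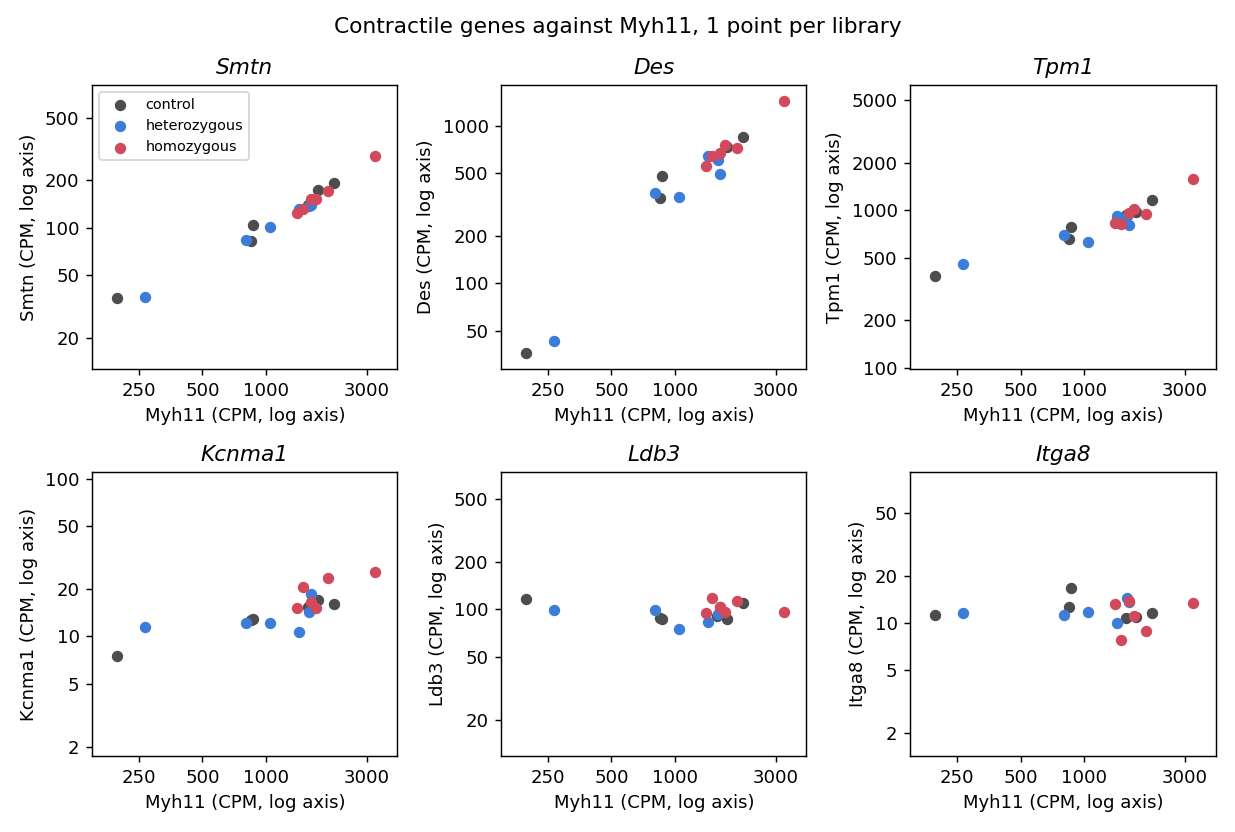
CPM of 6 members (vertical, log axis of the same span in each panel) against CPM of *Myh11* (horizontal, log axis), with 1 point per library coloured by genotype. *Smtn* and *Des* climb with *Myh11*, *Des* most steeply at the low end, *Tpm1* and *Kcnma1* climb less, and *Ldb3* and *Itga8* stay level.

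The genes shared a direction but not a size of movement. The SD of log2 CPM between mice of a genotype had a median of 0.70 over the members, and the SD of the log2 ratio to *Myh11* a median of 0.36. Dividing by *Myh11* lowered the SD for 24 of the 32 genes, from 0.95 to 0.13 for *Dmpk* and from 0.81 to 0.21 for *Acta2*. It raised the SD for the other 8, such as *Tpm1* (from 0.41 to 0.56) and *Kcnma1* (from 0.33 to 0.72). Without the 3 libraries that stood apart, the medians were 0.33 and 0.23, and 25 of the 32 genes had a lower SD after division. *Synm* (1.46), *Des* (1.30) and *Actg2* (1.25) had the widest SD of log2 CPM and *Ldb3* (0.20) the narrowest.

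How unequal the movement was can be read from the libraries that stood apart. In control 6, 31 of 33 members were below all other controls, and their median was 24.1% of the median of the other 5 controls. In heterozygous 3, 29 members were below all other heterozygous libraries, with a median of 34.9%. *Synm* was at 3.66% and 7.48% of the others in control 6 and heterozygous 3, *Des* at 5.68% and 8.81%, *Actg2* at 6.72% and 10.9%, *Tpm2* at 9.33% and 14.1%, and *Cnn1* at 10.4% and 16.1%. Much more remained of *Tpm1* (41.6% and 56.3%), *Prkg1* (43.8% and 57.5%), *Mcam* (47.1% and 68.9%) and *Cav1* (52.8% and 70.8%). *Kcnma1* stood at 49.0% in control 6 and 94.2% in heterozygous 3, and *Cacna1c* at 18.9% and 59.2%. For both channels the gap between the 2 libraries was wider than that of the medians. *Itga8* (96.6% and 98.9%) and *Ldb3* (133% and 106%) were not lowered.

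Over the 33 genes, the percentages left in the 2 libraries had r = 0.955 on the log scale and rho = 0.934, given as a description, since the genes share these libraries and are not independent. Homozygous 3 showed the opposite. There 31 of the 33 members were above all other homozygous libraries. *Synm* (246%), *Flna* (234%), *Kcnmb1* (230%) and *Pgm5* (228%) were highest there relative to the median of the other 5, and *Itga8* (120%) and *Ldb3* (93.8%) lowest. The order was in part that of the low libraries, with *Synm* at the extreme in all 3.

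**Figure D3:**
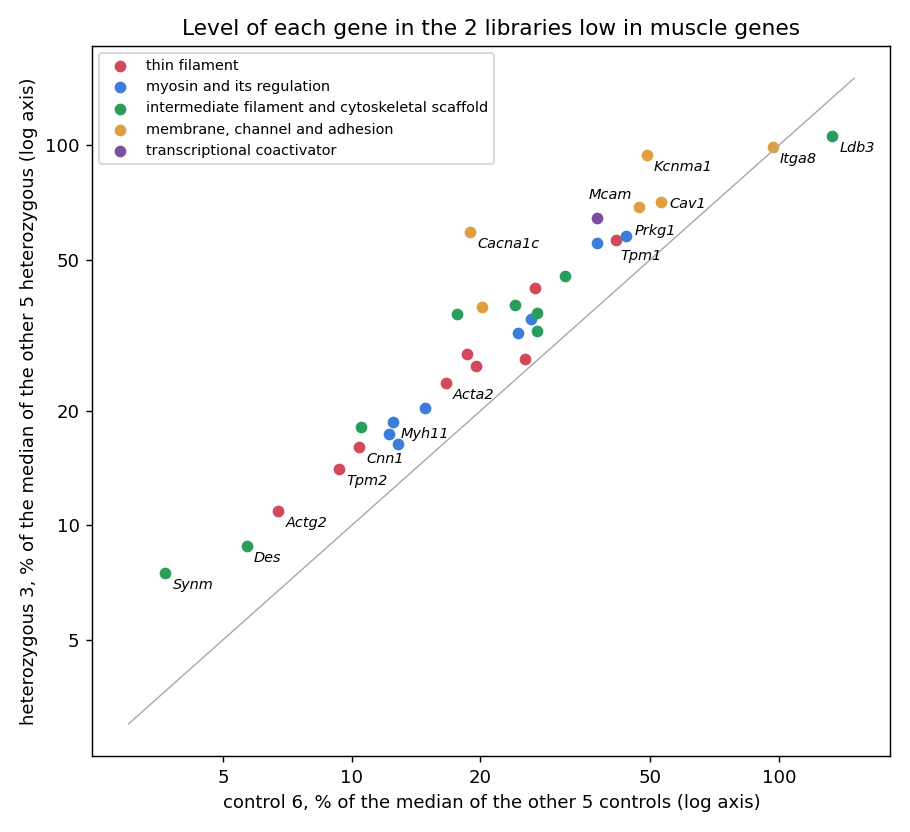
Level of each of the 33 genes in control 6 (horizontal) and heterozygous 3 (vertical), each as a percentage of the median of the other 5 libraries of its genotype, on log axes, coloured by role; the line marks equal percentages. *Synm*, *Des* and *Actg2* lie lowest in both libraries, and *Itga8* and *Ldb3* lie near 100.

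Genes of other cells in the outer wall moved with muscle in these libraries, and their part in the differences between genotypes was not tested. The summed level of 8 mesothelial markers ran from 10.8 to 198 CPM among controls, from 9.89 to 130 CPM among heterozygous mice and from 37.6 to 324 CPM among homozygous mice, with the lowest values in control 6 and heterozygous 3, the highest in homozygous 3, and *Upk3b* and *Wt1* each at 0 in 2 libraries. The sum of 13 enteric neuron markers was 31.3 to 149 CPM, 59.2 to 127 CPM and 104 to 235 CPM in that order, again lowest in control 6 and heterozygous 3, with no marker at 0. Set against *Myh11* over 18 libraries, the mean log2 CPM of the tested markers gave r = 0.984 for enteric neurons (12 markers), 0.952 for enteric glia (5), 0.920 for pericytes (7), 0.908 for interstitial cells of Cajal (6), 0.906 for mesothelium (8) and 0.828 for fibroblasts (15), each with a permutation p of 1e-05 and an adjusted p of 1.67e-05 over 10 lists. The corresponding rho was 0.957, 0.750, 0.839, 0.891, 0.721 and 0.800, and r without the 2 farthest libraries 0.961, 0.856, 0.892, 0.886, 0.716 and 0.847. Adipocyte markers (7) had r = 0.690 (adjusted permutation p = 0.000129), rho = 0.666 and r = 0.702 without those libraries.

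Epithelial markers (14) fell as *Myh11* rose (r = -0.552, permutation p = 0.018, adjusted p = 0.0225, rho = -0.569, and r = -0.633 without the 2 farthest libraries). Endothelial markers (10) had r = 0.418 (permutation p = 0.0852, adjusted p = 0.0947, rho = 0.478, and r = 0.497 without those libraries), and B cell markers (12) had r = -0.022 (permutation p = 0.945, adjusted p = 0.945, rho = -0.053, and r = -0.331). Summed epithelial markers in control 6 and heterozygous 3 were 1.02 and 1.03 times the median of the others of their genotype. Fibroblast markers stood at 0.504 and 0.829 times and pericyte markers at 0.410 and 0.603 times. The glial sum was 1.22 times the others in both, but *Erbb3* made up 94.1% of it, so the mean log2 level is the better guide to that list. Only 2 of 12 skeletal muscle markers passed the filter, *Myh4* and *Tnnc2* being at 0 in 15 of 18 libraries, and no correlation was computed for them. Without homozygous 3 as well, over 15 libraries, r was 0.941 for enteric neurons, 0.835 for pericytes, 0.824 for interstitial cells of Cajal, 0.786 for fibroblasts, 0.776 for glia, 0.681 for adipocytes, 0.621 for mesothelium, 0.431 for endothelium, -0.34 for B cells and -0.477 for epithelium.

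The genes most like *Myh11* outside the 33 were found by r over all genes tested. *Jph2*, a junctophilin, had the highest r of all (0.995, and 0.978 without the 2 farthest libraries), followed by *Slc24a3* (0.987), *Adam33*, *Myom1* and *Epha7* (0.986 each), *Cpe* and *Wscd2* (0.985 each), and *Tnnt2*, *Lrrc3* and *Sparcl1* (0.984 each). Of the 50 genes with the highest r, 11 were members.

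Ratios of paired members describe the makeup of the muscle transcripts in each genotype. They did not separate makeup from amount, since several ratios shifted in control 6 and heterozygous 3, the libraries low in muscle genes. Each ratio was taken within a library from counts per kilobase. *Actg2* over *Acta2*, the visceral over the vascular-type actin, had a lowest, median and highest value of 0.258, 0.649 and 0.787 in controls, 0.259, 0.572 and 0.750 in heterozygous and 0.655, 0.698 and 0.781 in homozygous mice. The low values belonged to control 6 and heterozygous 3, and the other 16 libraries lay between 0.521 and 0.787. *Tpm2* over *Tpm1*, the ratio of 2 tropomyosin genes of which *Tpm1* is also used outside muscle, ran 0.214, 0.933 and 1.02 in controls, 0.212, 0.827 and 1.09 in heterozygous and 0.932, 1.03 and 1.17 in homozygous mice. Here too the same libraries gave the low values, against 0.728 to 1.17 in the other 16.

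Each ratio was compared by an exact two-sided permutation test, which with 6 mice on each side can go no lower than p = 0.00216. None of the 15 comparisons of 5 ratios passed Benjamini-Hochberg adjustment, and 2 had an unadjusted p under 0.05. These were *Tpm2* over *Tpm1* in homozygous against heterozygous mice (difference 0.55 on the log2 scale, exact p = 0.026, adjusted p = 0.227) and *Actg2* over *Acta2* in the same comparison (0.42, exact p = 0.0303, adjusted p = 0.227). Without the 2 low libraries the differences were 0.21 (exact p = 0.0519, adjusted p = 0.455) and 0.22 (exact p = 0.0606, adjusted p = 0.455). Against controls, the homozygous ratio was higher by 0.51 for the tropomyosins (exact p = 0.0563, adjusted p = 0.281) and by 0.32 for the actins (exact p = 0.121, adjusted p = 0.455), and by 0.16 and 0.09 without the low libraries. The ratios *Kcnmb1* over *Kcnma1*, *Ppp1r14a* over *Ppp1r12b* and *Pdlim3* over *Pdlim7* had differences of -0.20 to 0.21 in the 3 comparisons, with exact p from 0.359 to 0.942. *Kcnmb1* over *Kcnma1* was 1.23 in control 6 and 1.28 in heterozygous 3, below the 2.24 to 4.10 of the other libraries. *Pdlim3* over *Pdlim7* was 0.617 and 0.569 there against 0.605 to 0.897. *Ppp1r14a* over *Ppp1r12b* went the other way, at 2.74 and 3.07 there against 1.33 to 2.55.

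**Figure D4:**
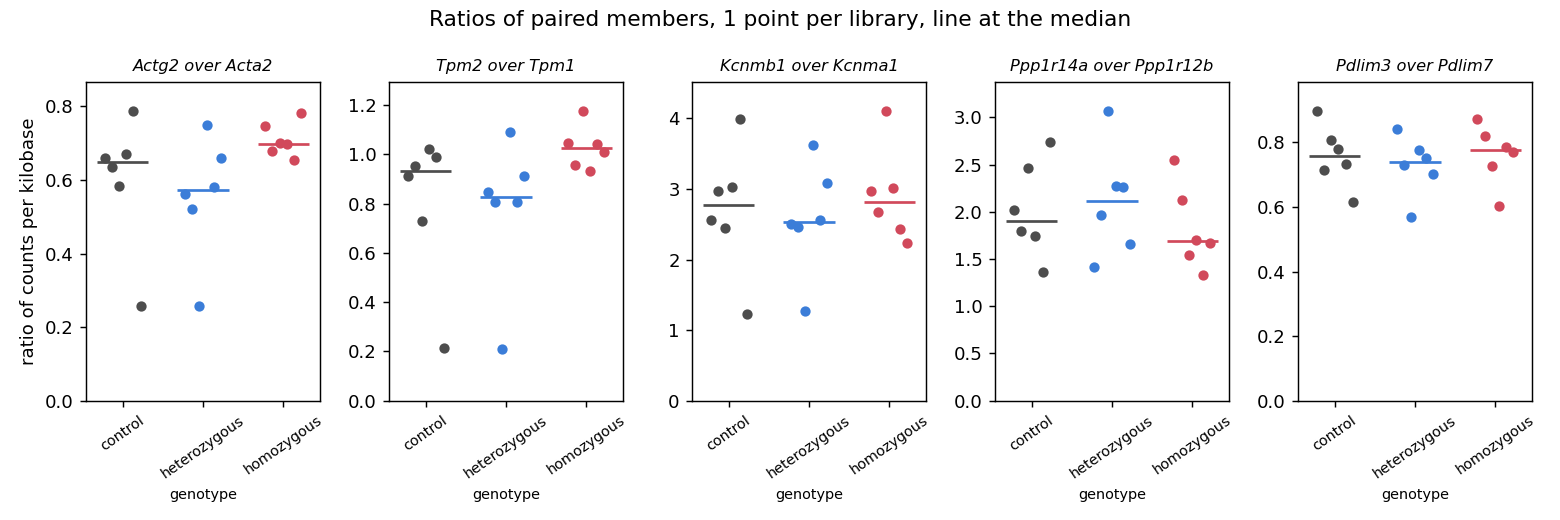
Ratio of counts per kilobase (vertical, from 0) of 5 pairs of members in each library, by genotype, with 1 point per library in order of replicate number and a line at the median. For *Actg2* over *Acta2*, *Tpm2* over *Tpm1* and *Kcnmb1* over *Kcnma1*, control 6 and heterozygous 3 lie below all other libraries.

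Between homozygous and control mice, 32 of the 33 genes had a higher fitted level in homozygous mice, the median of their log2 fold changes being 0.53 with a range of -0.12 to 0.73, but none passed the test. At an adjusted p under 0.05 (edgeR's quasi-likelihood test, Benjamini-Hochberg over 12645 genes), 0 of 33 members were called, where 0.411% of all genes tested were. Members at an unadjusted p under 0.05 numbered 2, or 6.06% of them, against 8.06% of all genes. DESeq2 called none either and put 5 members under an unadjusted p of 0.05, and limma-voom none and 4. The share over all genes was taken from edgeR only, so these counts have no background beside them. The levels of the 2 genotypes overlapped for all 33, and 0.854% of all genes did not overlap. For all genes the median log2 fold change was -0.0048 and 48.1% were positive. The members vary together across mice, so their shared sign is not 33 separate observations.

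By edgeR, the largest log2 fold changes between homozygous and control mice were those of *Synm* (0.73 ± 0.61 SE, adjusted p = 0.793), *Cald1* (0.71 ± 0.37, adjusted p = 0.644) and *Cacna1c* (0.69 ± 0.35, adjusted p = 0.647), and the smallest those of *Itga8* (-0.12 ± 0.15), *Ldb3* (0.10 ± 0.11) and *Cav1* (0.28 ± 0.26). *Myh11* was at 0.67 (95% confidence interval -0.24 to 1.58), *Actg2* at 0.60 (-0.51 to 1.72), *Des* at 0.65 (-0.49 to 1.79) and *Acta2* at 0.52 (-0.28 to 1.32). Intervals of this width hold a 2-fold rise as well as no change. The order depended on the method, since limma-voom put *Des* (1.07), *Actg2* (1.03) and *Cnn1* (0.90) above *Cald1* (0.88). *Kcnma1* had the lowest p of the members, with a log2 fold change of 0.53 ± 0.18 (edgeR, adjusted p = 0.397). All 6 homozygous libraries lay above its control median. *Ppp1r14a* was the other gene under 0.05 (0.48 ± 0.22, adjusted p = 0.602, edgeR).

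By role, the median log2 fold change was 0.56 for the 9 thin filament genes, 0.53 for the 8 genes of myosin and its regulation, 0.59 for the 9 of intermediate filament and scaffold and 0.41 for the 6 of the membrane, and *Myocd* was at 0.52 ± 0.31. These values were smaller without the libraries that stood apart. Without control 6 and heterozygous 3 the median over the members was 0.35, and without homozygous 3 as well it was 0.16, with 31 of 33 genes still above 0. These alternatives were chosen after seeing the data, and no member was called in any of them. Leaving out a control low in these genes and a homozygous library high in them lowers the difference by construction. The smaller medians therefore do not show what the size of the difference rests on. Without the 3 libraries, 1 member had an unadjusted p under 0.05 (edgeR), against 7.05% of all genes.

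Between heterozygous and control mice the members sat slightly on the other side. Of 33 genes 30 had a lower and 3 a higher fitted level in heterozygous mice, with a median log2 fold change of -0.13 and a range of -0.36 to 0.13. None was called by edgeR, against 0.293% of all genes, and none had an unadjusted p under 0.05, against 5.29%. DESeq2 and limma-voom also gave 0 at both thresholds. The levels overlapped for all 33 genes, and 0.467% of all genes did not overlap. *Cnn1* (-0.36 ± 0.46), *Actg2* (-0.34 ± 0.53) and *Tagln* (-0.27 ± 0.28) were lowest, and *Myocd* (0.13 ± 0.31), *Kcnma1* (0.00 ± 0.18) and *Itga8* (0.00 ± 0.15) highest, each with an adjusted p of 1.0. The median depended on single libraries. Its sign turned without heterozygous 3 (0.03), while it was -0.31 without control 6 and -0.15 without the 3 libraries that stood apart. For all genes the median was -0.0058.

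Between homozygous and heterozygous mice, 32 of the 33 genes were again higher in homozygous mice by the fit, with a median log2 fold change of 0.70 and a range of -0.12 to 0.94. None was called by edgeR, where 0.00791% of all genes tested, a single gene, were. At an unadjusted p under 0.05 there were 8 members, or 24.2%, against 7.61% of all genes, and the members again vary together across mice. DESeq2 and limma-voom called none, with 13 and 10 members at an unadjusted p under 0.05, again without a share over all genes. By edgeR they were *Kcnma1* (0.52 ± 0.18, adjusted p = 0.588), *Tagln* (0.74 ± 0.28), *Prkg1*, *Ppp1r14a*, *Pdlim7*, *Csrp1*, *Cacna1c* and *Pdlim3*, the last 7 each with an adjusted p of 0.642. *Actg2* (0.94 ± 0.53), *Cnn1* (0.94 ± 0.46) and *Synm* (0.91 ± 0.61) had the largest fold changes, and *Itga8* (-0.12 ± 0.15), *Ldb3* (0.13 ± 0.11) and *Cav1* (0.31 ± 0.26) the smallest.

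*Lmod1*, leiomodin, which starts new actin filaments, was the 1 member whose levels did not overlap between these genotypes. It ran from 16.7 through 58.2 to 66.1 CPM in heterozygous and from 66.5 through 73.0 to 129 CPM in homozygous mice, and 0.269% of all genes did not overlap. The gap was narrow, and its log2 fold change was 0.67 ± 0.36 with an adjusted p of 0.642 (edgeR). The median over the members was 0.50 without control 6 and heterozygous 3 and 0.32 without homozygous 3 as well. Members at an unadjusted p under 0.05 (edgeR) then numbered 19 and 7 in that order, and none was called. Beside the 7 members, 3.5% of all genes were under 0.05, and beside the 19 no such share was taken. The libraries to leave out were chosen after seeing the data, and the members vary together across mice. The 2 comparisons that include homozygous mice share those 6 libraries, homozygous 3 among them.

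Markers of other cells were fitted in the same comparisons. In homozygous against control mice, 8 of 8 mesothelial markers had a higher fitted level (median log2 fold change 0.67), as did 11 of 12 of enteric neurons (0.59), 15 of 15 of fibroblasts (0.36), 6 of 6 of interstitial cells of Cajal (0.36), 7 of 7 of adipocytes (0.35) and 6 of 7 of pericytes (0.34). The medians of mesothelium and enteric neurons were thus above the 0.53 of the muscle genes. Summed adipocyte markers varied widely, from 52.6 to 691 CPM among controls with a median of 122 CPM, and *Adipoq* and *Lep* were at 0 in 6 and 7 libraries. Glial (0.10), endothelial (0.08) and epithelial markers (-0.01) had medians nearer 0, and all 12 B cell markers were lower (median -2.79). The B cell values were carried by few libraries, with a sum of 535 and 669 CPM in 2 controls, 381 CPM in 1 heterozygous and 116 CPM in 1 homozygous library and 24.0 to 45.4 CPM in the other 14, and with medians of 35.8, 32.9 and 32.8 CPM for control, heterozygous and homozygous mice. The 1 marker called was the receptor gene *Ret* of enteric neurons (log2 fold change 0.90, adjusted p = 0.000465, edgeR; 0.76 and 0.00459 without the 3 libraries that stood apart). In homozygous against heterozygous mice the medians were 0.98 for mesothelium, 0.64 for enteric neurons, 0.45 for fibroblasts, 0.40 for interstitial cells of Cajal and 0.28 for pericytes, and -1.37 for B cells. In heterozygous against control mice, where 30 of 33 muscle genes were lower, 0 of 8 mesothelial markers (median -0.32), 3 of 15 of fibroblasts (-0.10), 2 of 6 of interstitial cells of Cajal (-0.05) and 5 of 12 of enteric neurons (-0.05) were higher, while 7 of 7 adipocyte (0.25) and 14 of 14 epithelial markers (0.06) were higher. Of the 12 B cell markers 0 were higher there (median -1.37). Without the 3 libraries that stood apart, the homozygous against control medians were -0.20 for mesothelium, 0.20 for enteric neurons, 0.10 for fibroblasts, 0.13 for interstitial cells of Cajal, 0.13 for pericytes, -0.43 for adipocytes and -2.95 for B cells, beside 0.16 for the muscle genes. The homozygous against heterozygous medians were then 0.14 for mesothelium, 0.29 for enteric neurons, 0.26 for fibroblasts, 0.18 for interstitial cells of Cajal, 0.15 for pericytes and -1.48 for B cells, beside 0.32 for the muscle genes. Adipocyte markers turned in this comparison, from a median of 0.15 (7 of 7 higher) over 18 libraries to -0.59 (0 of 7 higher). The heterozygous against control medians were then -0.34 for mesothelium, -0.17 for fibroblasts, 0.25 for adipocytes, 0.10 for epithelium and -1.41 for B cells, beside -0.15 for the muscle genes. The part of these cells in the muscle values was not tested.

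**Figure D5:**
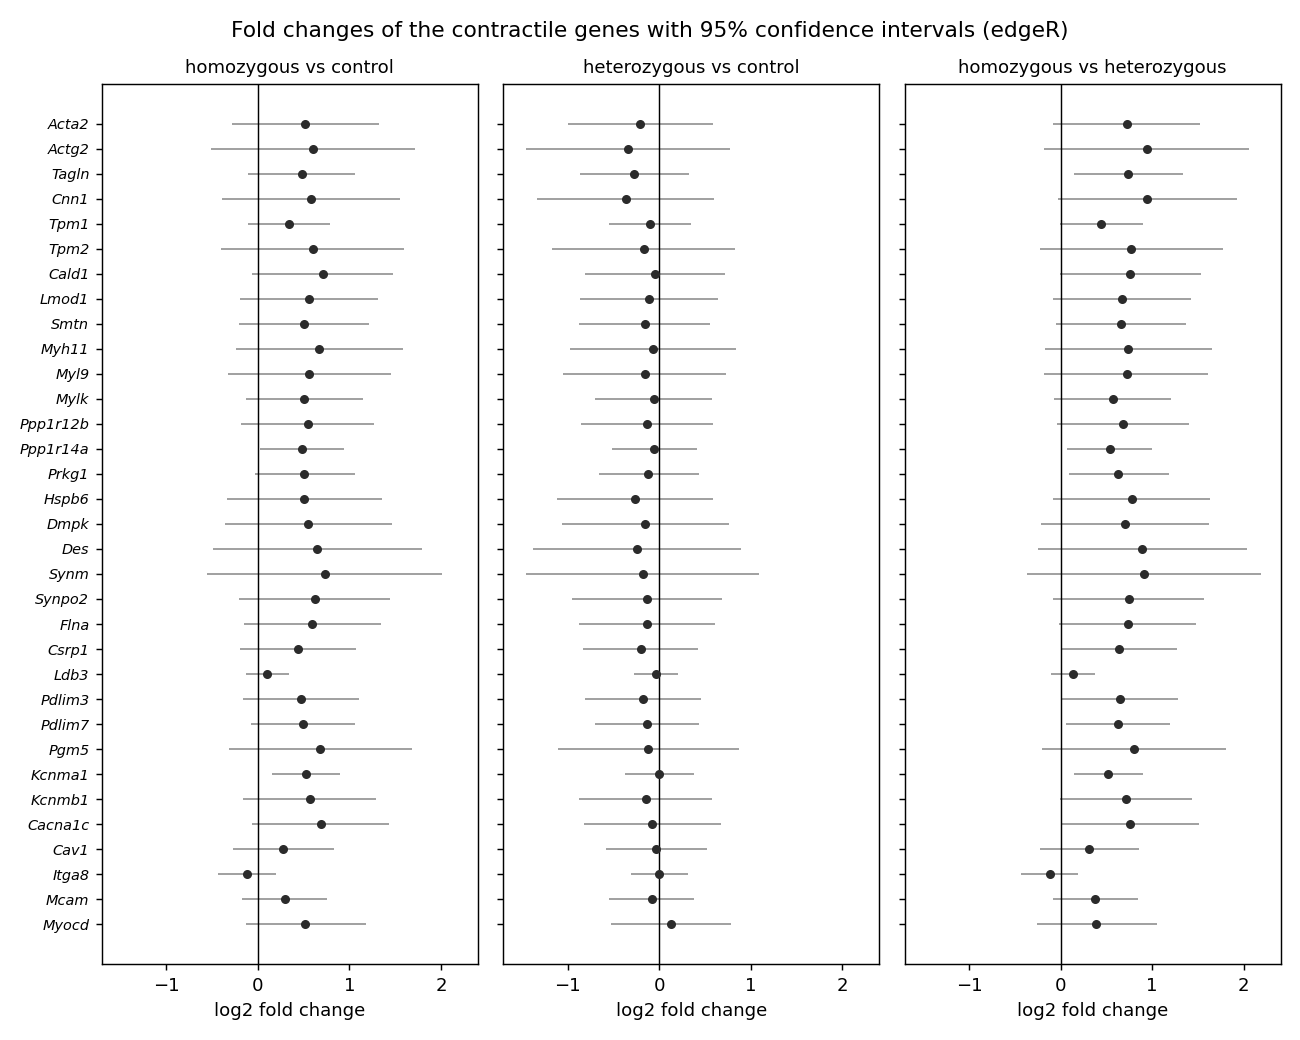
Log2 fold change (horizontal) of each of the 33 genes (vertical, grouped by role) in the 3 genotype comparisons, with 95% confidence intervals from edgeR. Points lie right of 0 for 32 genes in both comparisons with homozygous mice and mostly left of it for heterozygous against control, and most intervals include 0.

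A further 75 genes of smooth muscle signalling, calcium handling, adhesion and transcription were examined around the members, of which 70 passed the filter. None of them was called by edgeR or DESeq2 in any of the 3 comparisons. In homozygous against control mice 63 of 70 were higher (median log2 fold change 0.28), where 48.1% of all genes were, and 7, or 10.0%, had an unadjusted p under 0.05 by edgeR, against 8.06% of all genes. In heterozygous against control mice 19 were higher (median -0.05), or 27.1% against 47.5% of all genes, and none was under 0.05, against 5.29%. In homozygous against heterozygous mice 64 were higher (median 0.31), or 91.4% against 49.9%, and 14 of the 70 were under 0.05, against 7.61% of all genes. DESeq2 put 9, 1 and 19 of them under an unadjusted p of 0.05 in that order, without a share over all genes beside them. Among the largest fold changes for homozygous against control were those of *Ryr2* (0.86 ± 0.57) and *Ryr3* (0.73 ± 0.33), which encode calcium release channels, and the smallest were those of *Cnn2* (-0.19 ± 0.20), *Gna11* (-0.07 ± 0.09) and *Rhoa* (-0.06 ± 0.06). The adjusted p of these 5 genes ranged from 0.599 for *Ryr3* to 0.883 for *Gna11*. Without the 3 libraries that stood apart, 58 of the 70 were higher in homozygous than in control mice, but the median fell to 0.09 and 3 genes had an unadjusted p under 0.05 by edgeR, against 7.05% of all genes. For homozygous against heterozygous mice the median was then 0.17 and 4 of the 70 were under 0.05, against 3.5% of all genes. For heterozygous against control mice it was -0.06, with 2 under 0.05, against 4.18%.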

How the data were processed

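Poly-A RNA from whole-thickness ileum of 18 mice was sequenced. The authors used STAR to map read pairs onto the Ensembl GRCm38 assembly and tallied uniquely aligned, unambiguous reads with featureCounts, and deposited these counts without normalization. The deposited CPM are counts divided by the library total, without TMM factors. The deposited FPKM divide also by gene length. The deposited log2 values are moderated log2 CPM and served an alternative. Groups follow the genotype in the labels.

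Of 13709 genes above 3 CPM in 4 or more libraries, the 12645 that code for protein were compared by edgeR 4.0.16 (TMM, quasi-likelihood test, 1 coefficient per genotype, all 18 libraries) in R 4.3.3, with Benjamini-Hochberg adjustment at 0.05. Simulated data were used to test the steps. For correlations, a prior count of 2 was added before taking log2 CPM. Exact and permutation tests used scipy 1.17.1.

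The members and lists were chosen with earlier results of these data known. The genes named are those with values in every genotype by the rule of the design (12 core genes, the 3 largest and 3 smallest fold changes of each comparison, and the 3 highest and 3 lowest r with *Myh11*), the 10 other genes most like *Myh11*, and, of the other smooth muscle genes, the 3 largest and 3 smallest fold changes, of which 1 result is not reported here. *Lmod1* and further members were named after their values were seen. Alternatives were DESeq2 1.42.0, limma 3.58.1 (voom, and trend on the deposited log2 CPM), other scaling, other filters, all biotypes, only the 12 libraries compared, a sex term, a replicate block, and leaving out each library.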

Additional observations from a re-analysis of the deposited data

Results flagged for a closer look

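Within groups of 6, a library was picked out where its gap to the nearest other, divided by the range, exceeded Dixon's 95% critical value, which chance passes in about 1 group in 20. Of 99 groups of values (33 genes in 3 genotypes), 22 passed, 21 of them through homozygous 3 as the highest library. There the thin filament genes stood at 1527 CPM (*Acta2*), 758 CPM (*Actg2*), 434 CPM (*Cnn1*), 1578 CPM (*Tpm1*), 832 CPM (*Tpm2*), 601 CPM (*Cald1*) and 285 CPM (*Smtn*). The myosin genes stood at 3294 CPM (*Myh11*), 849 CPM (*Myl9*), 1568 CPM (*Mylk*), 316 CPM (*Ppp1r12b*), 71.2 CPM (*Hspb6*) and 518 CPM (*Dmpk*). The scaffold genes stood at 1430 CPM (*Des*), 384 CPM (*Synm*), 2677 CPM (*Flna*), 584 CPM (*Csrp1*), 111 CPM (*Pdlim3*) and 144 CPM (*Pdlim7*), and the channel genes at 26.1 CPM (*Kcnmb1*) and 68.5 CPM (*Cacna1c*). The summed members took 1.91% of counts in that library. In control 1, *Itga8* was at 16.6 CPM, above the other controls. Control 6 and heterozygous 3 passed for no gene by this limit, although nearly all members were lowest in them. The gaps were taken on CPM and not on a log scale. On CPM a fall makes a smaller gap than a rise of the same fold. The limit therefore cannot decide whether the low libraries stood apart less than homozygous 3.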

How the results depend on the processing

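No member was called in any of 31 alternatives to each comparison, and the lowest adjusted p of a member over them was 0.181 (homozygous and control mice), 0.842 (heterozygous and control) and 0.318 (homozygous and heterozygous). Members at an unadjusted p under 0.05 numbered 1 to 9, 0 and 2 to 24 in that order, the 9 without control 5 and the 24 without control 6, and 5, 0 and 13 by DESeq2. No share over all genes is given beside these counts, so they are not set against a background. A fit with log2 CPM of *Myh11* as a covariate, chosen after seeing the data, was left out of the 31 because it removes by construction what the members share. It called no member, put 1, 4 and 1 of the other 32 under 0.05, and gave medians of -0.01, -0.09 and 0.08. Leaving out each library in turn gave a median log2 fold change of 0.34 (without homozygous 3) to 0.68 (without control 5), of -0.31 to 0.03, and of 0.48 (without homozygous 3) to 0.79 (without heterozygous 1). The spread between mice of the members' mean log2 CPM, 0.68, was of the size of the larger medians. The labels do not say whether replicate numbers pair the mice. Libraries of the same number correlated from -0.61 to 0.64 with genotype means removed. These correlations cannot decide it, since they also carry differences between pieces of gut. With a replicate block 0 members were called and the medians were 0.61, -0.06 and 0.68. No ratio of paired members passed adjustment under any alternative. The sign-flip test over replicate numbers could not decide this, since with 6 pairs no single ratio can pass adjustment over 15 tests. The 30 relations to *Myh11* numbered 30 with the deposited log2 CPM and 30 with genotype means removed. Of the 10 marker lists, 8 passed, and 9 and 8 under those alternatives. The lowest count of a member in any library was 59.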
